A study of Macaca mulatta with 24 samples.

Results

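PIWIL4 encodes a PIWI protein, a member of the Argonaute family of proteins that are guided to their targets by small RNAs. It was selected on its levels in these same arrays, as the gene most steadily lower in conception cycles than in non-mated cycles, so its differences between cycle types are described here without a test. The array carries 1 PIWIL4 probe among 20217 probes, which name 11238 genes. Endometrial RNA of proven fertile rhesus monkeys was extracted with Trizol, labelled with Cy3 and measured on 24 Agilent 1-colour arrays, with 4 arrays in each of 6 groups. The groups were conception cycles at days 2, 4 and 6 and non-mated cycles at days 2, 4 and 6. Conception cycles were mated cycles in which conception was proven, and the other cycles were non-mated and normo-ovulatory. No drug or hormone treatment is named for either cycle type. The day counts from ovulation in all descriptions, although the source names of the conception samples call it a day post fertilization. In 8 samples of non-mated days 4 and 6 the title gives day 2 instead, and the groups follow the source name, description and characteristics. No label ties an array to its own animal, so the p-values measure only the spread of these samples, and that spread may be technical.

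PIWI proteins bind piRNAs, small RNAs known mainly from the germline, where they guide the silencing of transposons. In fetal male germ cells of the mouse the PIWIL4 orthologue acts in the nucleus and is needed for DNA methylation of transposons. The AGO proteins, the other branch of the family, bind microRNAs and are used in most tissues. The endometrium lines the uterus and is remodelled under progesterone after ovulation.

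The PIWIL4 signal rests on 1 probe of 60 bases at chr14:93162324-93162383 on the plus strand of rheMac2, with 24 G or C bases (40%). The first 30 bases are shown with those of 3 relatives, because each gene is read by its own short stretch of transcript. Capitals mark the first stop triplet of each forward reading frame (TAA, TAG or TGA) where it lies in the stretch shown.
PIWIL4: attcccaccccagattttccTGAggttttg
PIWIL3: aaagacgggacatttgtcacagagagtata
AGO1: tgTAAtgtacagttccttcTGAagcaagca
AGO3: ccaactgctttttgtgcggtctcctgTAGg
Over its 60 bases the PIWIL4 probe has a stop triplet in all 3 forward frames, as does the PIWIL3 probe at chr10:69248297-69248356. The AGO1 probe at chr1:38765920-38765979 has one in 2 frames and the AGO3 probe at chr1:38895001-38895060 in 1 frame. Exon and UTR annotation of this build was not used here.

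The level used below is the log2 signal of a probe minus the 75th percentile of log2 signals on its array, so 0 equals that percentile. A probe counts as well above background by the scanner software's own call, which held for 53.3% to 71.5% of probes on each of 21 arrays. On 3 weak non-mated arrays the share was 4.33% (day 2 replicate 3), 37.9% (day 4 replicate 1) and 21.8% (day 4 replicate 2). Over the 21 other arrays the median share was 56.5% in conception and 68.0% in non-mated cycles, and 5 of the 12 conception arrays against 1 of the 9 non-mated arrays were scanned over a single signal range instead of an extended one. The part of these differences in the PIWIL4 results was not tested, and values without such arrays are given where they differ. Of the marker lists, 9 of 12 epithelial and 11 of 12 stromal genes passed the filter on dim probes, among them CLDN3, KRT18, VIM and HOXA10. Of 9 germ cell genes on the array 0 passed.

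PIWIL4 was measurable in the endometrium of non-mated cycles on all 3 days and was lower in conception cycles at days 4 and 6 under every processing choice run. At day 2 the cycle types overlapped, and the sign of their difference turned under quantile normalization. At conception day 6 the probe was well above background on none of the 4 arrays. In the fit of all arrays the mean was lower on each later day of conception cycles and differed by at most 0.34 between days of non-mated cycles. Under other processing choices the differences between non-mated days ran from -0.71 to 1.22. The effect of day in conception cycles did not pass the threshold across all features in the fit of all arrays. The probe was well above background on 6 of 12 conception arrays and on 9 of 9 non-mated arrays that were not weak. On these arrays the median share of all probes so called was 56.5% in conception and 68.0% in non-mated cycles. AGO2 was well above background on 4, 1 and 0 conception arrays at days 2, 4 and 6, and on 3, 2 and 2 non-mated arrays. The part of array sensitivity in the PIWIL4 count was not tested. By PIWIL4 level 10 of the 12 conception arrays lay below every one of the 9 non-mated arrays that were not weak. The same count was not made for other features, and it is no support for the contrast on which the gene was chosen.

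At day 2 the PIWIL4 level was -3.19, -1.85, -1.34 and -2.31 in conception cycles (replicates 1 to 4), against -0.94, -1.96, -0.28 and -1.48 in non-mated cycles. The value of -0.28 is from the weak array, on which both PIWIL4 spots were not well above background. For both spots the scanner software used a surrogate, a stand-in for the measured signal, so -0.28 is no measured PIWIL4 level. The groups overlapped, since conception replicates 2 and 3 lay above the lowest non-mated array. The means were -2.17 ± 0.79 and -1.17 ± 0.72 (SD, n = 4 each), a log2 difference of -1.01 ± 0.48 (SE from the limma fit). Leaving out the weak array gave a difference of -0.71 ± 0.47, with a non-mated mean of -1.46 ± 0.51 (SD, n = 3). A fit without the weak and the single-range arrays, chosen after seeing the data, left 1 conception array at day 2 and gave -0.13. Without the single-range arrays alone, which left the same conception array, it was -0.44. With the slide as a fixed term, also chosen later, the difference was -0.32. Without conception day 2 replicate 1, the dimmest of its group, it was -0.67.

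At day 4 the level was -3.72, -2.62, -4.18 and -3.90 in conception cycles, where replicates 3 and 4 were not well above background. In non-mated cycles it was -1.59, -0.33, -1.34 and -1.31, of which the values of -1.59 and -0.33 are from weak arrays on which the probe was not well above background. All 4 conception arrays lay below all 4 non-mated arrays. The means were -3.60 ± 0.69 and -1.14 ± 0.56 (SD, n = 4 each), and the log2 difference was -2.46 ± 0.48 (SE). Leaving them out gave -2.28 ± 0.53, with a non-mated mean of -1.33 ± 0.02 (SD, n = 2).

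At day 6 the level was -3.91, -4.59, -5.62 and -3.73 in conception cycles, against -1.44, -1.25, -1.66 and -1.58 in non-mated cycles. None of these arrays was weak, and the groups did not overlap on this scale. As a share of the 75th percentile signal of the array, PIWIL4 reached 6.66%, 4.15%, 2.03% and 7.51% in conception cycles and 36.8%, 42.2%, 31.5% and 33.4% in non-mated cycles. The means were -4.46 ± 0.86 and -1.48 ± 0.18 (SD, n = 4 each), and the log2 difference was -2.98 ± 0.48 (SE). Because 0 of the 4 conception arrays were well above background, against 4 of 4 non-mated arrays, the fold was computed with a floor. A dim value below the weakest detected signal of its array was set to that signal. So computed, and with the scanner's own background correction, PIWIL4 was 6.09-fold lower in conception cycles at day 6. This fold is no strict bound. Replicates 1 and 4, at -3.91 and -3.73, were not well above background, yet lay above their floors of -3.99 and -4.21. The fold does not cover other background corrections, and under normexp the log2 difference was -1.56.

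Averaged over the days the log2 difference was -2.15 ± 0.28 (SE), the 8th lowest of 12208 features, and its ratio to its standard error was the lowest of all. The next by that ratio was HRH1, the histamine H1 receptor gene, at -2.01 ± 0.35, followed by TMEM61 at -1.81 ± 0.33. By the size of the difference PIWIL4 ranked 1530th from the lowest at day 2, 65th at day 4 and 19th at day 6. Conception arrays lay wholly below non-mated arrays for 0.836% of features at day 2, 1.29% at day 4 and 1.74% at day 6. With the weak arrays left out these shares were 1.37%, 6.81% and 1.74%. The PIWIL4 mean was lower by at least 1 on all 3 days, as for 0.459% of features; with the weak arrays left out 0.106% of features met this and PIWIL4 did not. These ranks and shares place the gene among the others and are no support for the contrast on which it was chosen.

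**Figure D1:**
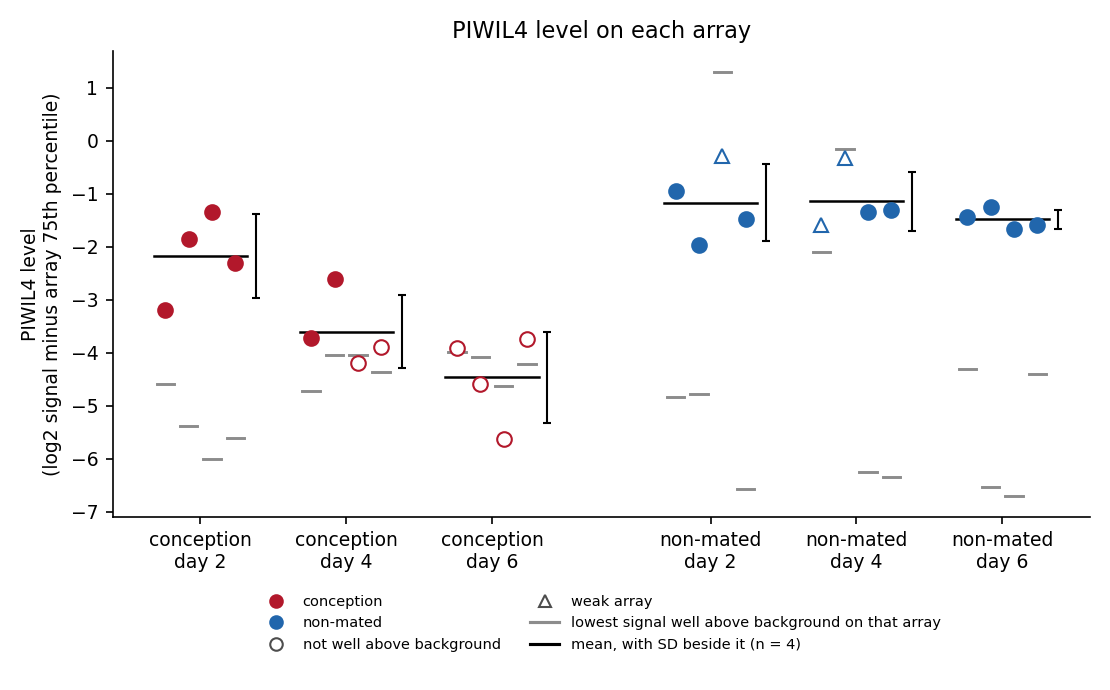
PIWIL4 level (log2 signal minus the array's 75th percentile) on each of the 24 arrays by group, with replicates 1 to 4 from left to right. Grey ticks show the lowest signal well above background on that array, and black lines the mean with the SD beside it (n = 4). Conception arrays of days 4 and 6 lie between -5.62 and -2.62, below all non-mated arrays.

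The 6 group means ran from non-mated day 4 (-1.14), non-mated day 2 (-1.17) and non-mated day 6 (-1.48) to conception day 2 (-2.17), conception day 4 (-3.60) and conception day 6 (-4.46). Each of the 5 pairs of neighbours in this order overlapped, so no neighbouring groups were wholly apart. The order was the same when the weak arrays were left out, with means of -1.33, -1.46 and -1.48 for the non-mated groups.

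Slide and scan day were examined as batches. On slide 1, with 2 conception arrays and 1 non-mated array of day 6, the difference was -2.81. On slide 4, with 2 conception arrays and 1 non-mated array of day 2, it was -0.56. The pairs of single arrays of day 4 on slides 2 and 3 differed by -2.13 and -2.29, and both non-mated arrays there were weak, with PIWIL4 not well above background on them, so no order was measured on these slides. On scan day 1 the differences at days 2, 4 and 6 were -0.94, -2.71 and -3.22, and on scan day 2 they were -1.07, -2.21 and -2.74, over 2 arrays a group each. The value of -0.94 includes a weak non-mated array, and without it the difference at day 2 of scan day 1 was -0.34; both non-mated arrays of day 4 on scan day 2 were weak. Conception was the lower in each of the 6 comparisons that held no weak array. These are not separate, since the conception arrays compared on slides 1 and 4 also enter the comparisons of scan day 2. They repeat the contrast on which the gene was chosen and lend it no support. On scan day 1 conception and non-mated arrays lay on different slides, so cycle type cannot there be told apart from the slide. With the slide as a fixed term the differences at days 4 and 6 were -2.19 ± 0.54 and -2.73 ± 0.61 (SE). At day 4 only slides 2 and 3 held both cycle types, so that value rests in part on their weak non-mated arrays. In the authors' deposited table of log2 values the differences were -1.02, -2.50 and -2.99 at days 2, 4 and 6.

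At days 4 and 6 background correction moved the size of the difference more than the other choices did. With the normexp method, which models the background instead of using the scanner's own correction and here adds an offset of 50, the differences were -0.16, -1.62 and -1.56 at days 2, 4 and 6. So corrected, the cycle types overlapped at day 6, with conception arrays between -3.75 and -1.10 and non-mated arrays between -1.30 and -0.74, and were apart at day 4. With quantile normalization, which gives all arrays the same distribution, the difference at day 2 was 0.18 and those at days 4 and 6 were -2.29 and -2.74. Quantile normalization also moved the median of all features at day 2 to 0.49, where it was -0.15 by the percentile scaling, and at day 4 to 0.41, where it was 0.02.

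**Figure D2:**
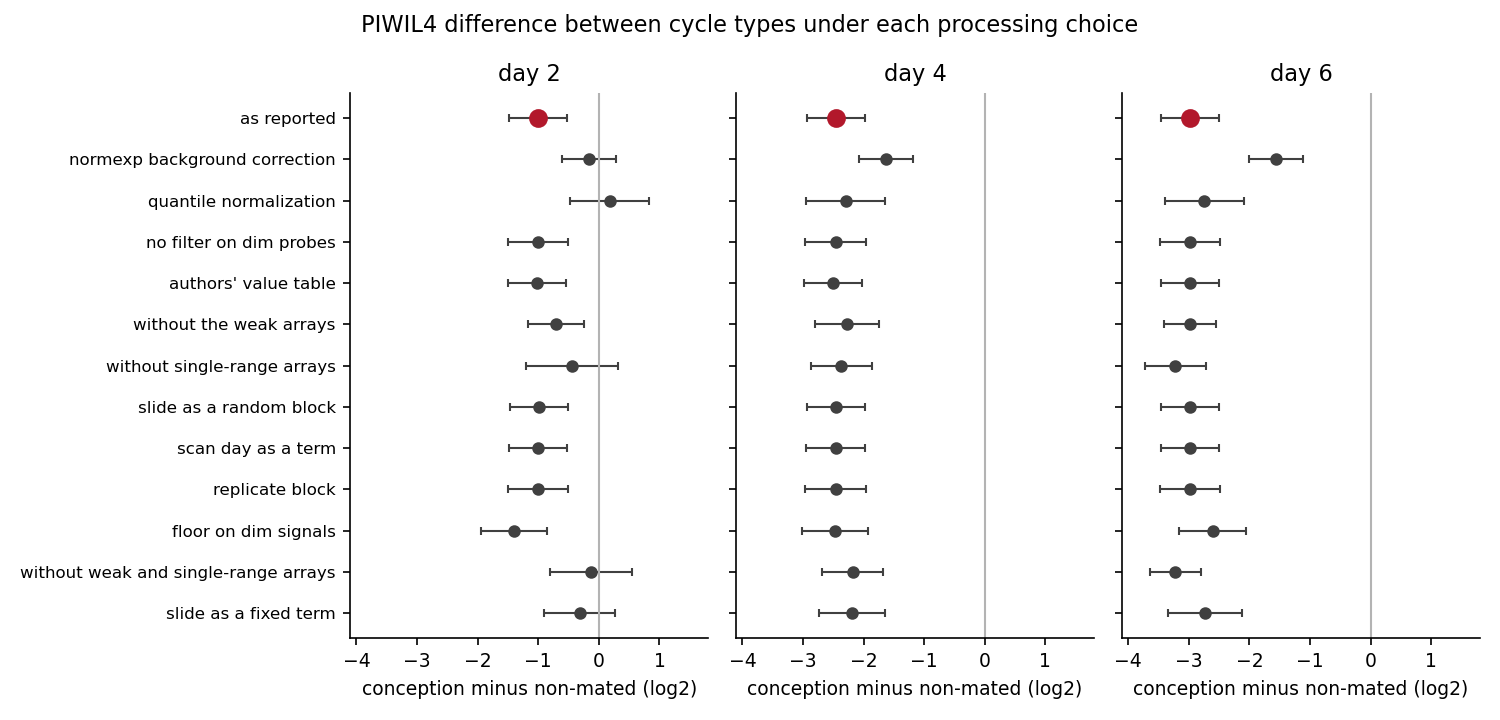
PIWIL4 difference, conception minus non-mated (log2), at days 2, 4 and 6 as reported (red) and under 12 other processing choices, with the standard error of each fit as bars. At days 4 and 6 all values lie between -3.22 and -1.56, while those at day 2 run from -1.40 to 0.18.

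The course over the days was examined within each cycle type, which was not the contrast on which the gene was chosen. It shares the conception arrays with that contrast, so low conception arrays of day 6 enter both. In conception cycles the log2 difference was -1.43 ± 0.48 (SE) for day 4 against day 2, -0.86 ± 0.48 for day 6 against day 4, and -2.29 ± 0.48 for day 6 against day 2. With the scanner's own background correction and the same floor, the level at day 6 was 3.78-fold lower than at day 2, again no strict bound. Under normexp the log2 difference was -0.10 for day 6 against day 4 and -1.57 for day 6 against day 2, so the fold does not cover it. With the floor on dim signals day 6 against day 4 was -0.52. With 1 array left out in turn, day 6 against day 4 ranged from -1.10 to -0.47 and day 6 against day 2 from -2.63 to -1.91. The arrays of days 6 and 2 did not overlap, as was the case, with day 6 the lower, for 2.39% of features. In the limma F-test of day the statistic was 11.7, with an unadjusted p of 0.000338, the 10th smallest of 12208, and an adjusted p of 0.413. At the adjusted threshold 0.00819% of features passed, and PIWIL4 was not among them.

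The outcome of this test changed with the arrays that entered the estimate of the spread. When the weak arrays, all of them from non-mated cycles, were left out, the conception values and differences were the same. The adjusted p from limma was then 0.0490 for day and 0.0175 for day 6 against day 2, the latter against 0.187 with all arrays. In that fit 52 of 12208 features passed for day and 208 for day 6 against day 2, where 1 and 2 passed with all arrays. With the single-range arrays left out as well, the limma adjusted p for day was 0.741, and the difference of day 6 against day 2, which then rests on 1 array of day 2, was -3.37. Over all limma settings the adjusted p for day ranged from 0.0490 to 1.00.

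In non-mated cycles the log2 difference of PIWIL4 was 0.02 ± 0.48 (SE) for day 4 against day 2, -0.34 ± 0.48 for day 6 against day 4 and -0.32 ± 0.48 for day 6 against day 2. The limma F-test of day gave an adjusted p of 0.876, with 0% of features past the threshold (301 at an unadjusted p under 0.05). Leaving out the weak arrays, the difference between days 6 and 2 was -0.02 ± 0.47. Over 12 other processing choices day 4 against day 2 ran from -0.33 to 1.22 and day 6 against day 2 from -0.71 to 0.87. The arrays of non-mated days 6 and 2 overlapped, while 1.92% of features lay wholly lower at day 6, or 2.73% with the weak arrays left out.

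The difference between the courses is the change over days of the contrast on which the gene was chosen, so it is given without a test. The log2 difference of day 6 against day 2 was -2.29 in conception cycles and -0.32 in non-mated cycles, apart by -1.97 ± 0.68 (SE). That of day 4 against day 2 was -1.43 in conception cycles and 0.02 in non-mated cycles, apart by -1.46 ± 0.68. Over all features 0% passed the limma F-test of the interaction (167 at an unadjusted p under 0.05).

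Slides 7 and 8 each carried 1 conception array of every day, and slides 5 and 6 each carried 1 non-mated array of every day. On slide 7 the PIWIL4 level at days 2, 4 and 6 was -1.34, -4.18 and -5.62, and on slide 8 it was -2.31, -3.90 and -3.73. On slide 5 the non-mated level was -0.28 (the surrogate value of the weak array), -1.34 and -1.25, and on slide 6 it was -1.48, -1.31 and -1.66. Both conception slides thus read lower at days 4 and 6 than at day 2, and day 6 read lower than day 4 on slide 7 alone. On both slides PIWIL4 was not well above background at days 4 and 6, so the order of those days was not measured. With the slide as a fixed term the difference of day 6 against day 2 in conception cycles was -2.80 ± 0.59, and the adjusted p for day was 0.880.

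**Figure D3:**
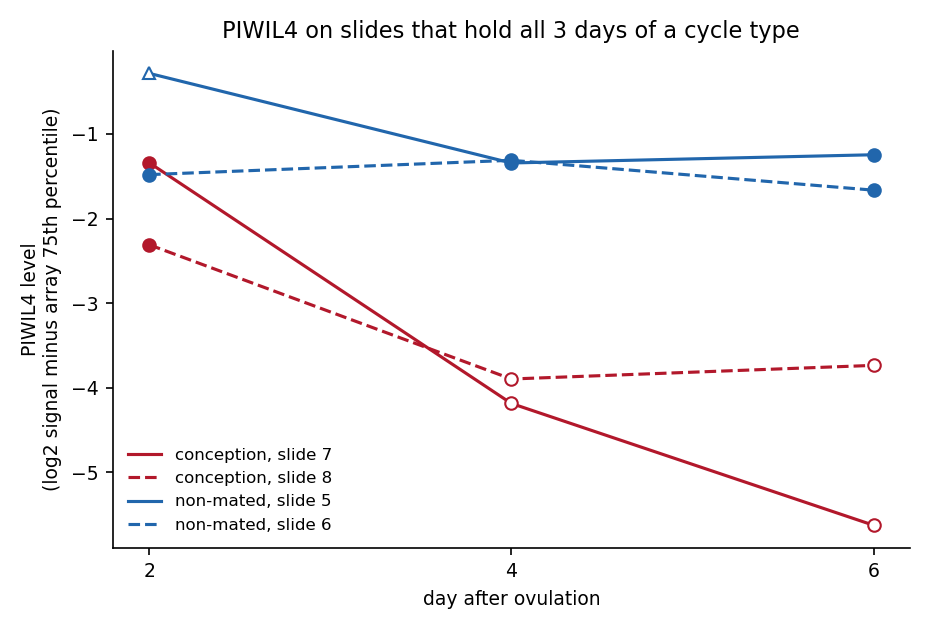
PIWIL4 level (log2 signal minus the array's 75th percentile) against the day after ovulation on the 4 slides that hold 1 array of each day, conception in red and non-mated in blue. Open symbols were not well above background and the triangle is a weak array. The conception slides lie between -5.62 and -3.73 at days 4 and 6, and the non-mated slides between -1.66 and -1.25.

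The probe was printed as a pair of spots on each array. The ratio of the brighter spot to the dimmer had a median of 1.05 and exceeded 1.25 on conception day 2 replicate 3 alone, where it was 1.92, with processed signals of 1717 and 895. None of the 48 spots carried an outlier flag.

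Other PIWI and Argonaute genes gave a contrast. Of 7 looked for, 5 were named on the array with 1 probe each, namely PIWIL3 and AGO1 to AGO4. PIWIL3, a PIWI gene known for its role in oocytes of the golden hamster, was well above background on 1 array, and AGO4 on 0. These 2 genes did not pass the filter. AGO1, AGO2 and AGO3, which load microRNAs, were tested on all 3 days between cycle types and for day within each cycle type and the interaction. None of these 18 limma tests passed (adjusted p from 0.709 to 1.00), and 1 had an unadjusted p under 0.05, AGO3 at day 2. Between cycle types 0% of all features passed at day 2 (305 at an unadjusted p under 0.05) and at day 4 (745), and 0.00819% at day 6 (292).

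AGO1 was well above background on all 24 arrays. At day 6 its level was 0.34, 0.91, 0.30 and 0.50 in conception cycles, against 0.46, 0.33, -0.14 and 0.32 in non-mated cycles. The groups overlapped, and the log2 difference was 0.27 ± 0.55 (SE, limma adjusted p = 1.00), where that of PIWIL4 on the same arrays was -2.98. Over days 2, 4 and 6 AGO1 averaged -0.17, 0.35 and 0.51 in conception cycles, and -0.05, 0.20 and 0.24 in non-mated cycles without the weak arrays. In the fit of all arrays its differences at days 2 and 4 were -0.92 and -0.62, and without the weak arrays they were -0.12 and 0.15, so the sign at day 4 turned with them.

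AGO2, the member that can cut its target RNA, was dim, and was well above background on 12 of 24 arrays. Its level averaged -4.24, -4.31 and -4.02 at days 2, 4 and 6 of conception cycles and -4.17, -4.33 and -4.49 in non-mated cycles without the weak arrays. The log2 difference at day 6 was 0.46 ± 0.70 (SE, limma adjusted p = 1.00). At day 4 it was -0.79 in the fit of all arrays and 0.03 without the weak arrays. On conception day 6 arrays AGO2, like PIWIL4, was well above background on 0 of 4.

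AGO3 was well above background on 18 arrays. Its level averaged -3.51, -3.20 and -3.52 at days 2, 4 and 6 of conception cycles, and -3.16, -3.31 and -3.21 in non-mated cycles without the weak arrays. The log2 difference at day 6 was -0.30 ± 0.51 (SE, limma adjusted p = 1.00). At day 2 it was -1.07 ± 0.51 in the fit of all arrays (limma adjusted p = 0.792) and -0.35 without the weak array. Between days 6 and 2 of conception cycles AGO1, AGO2 and AGO3 differed by 0.68, 0.22 and -0.01, where PIWIL4 differed by -2.29.

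**Figure D4:**
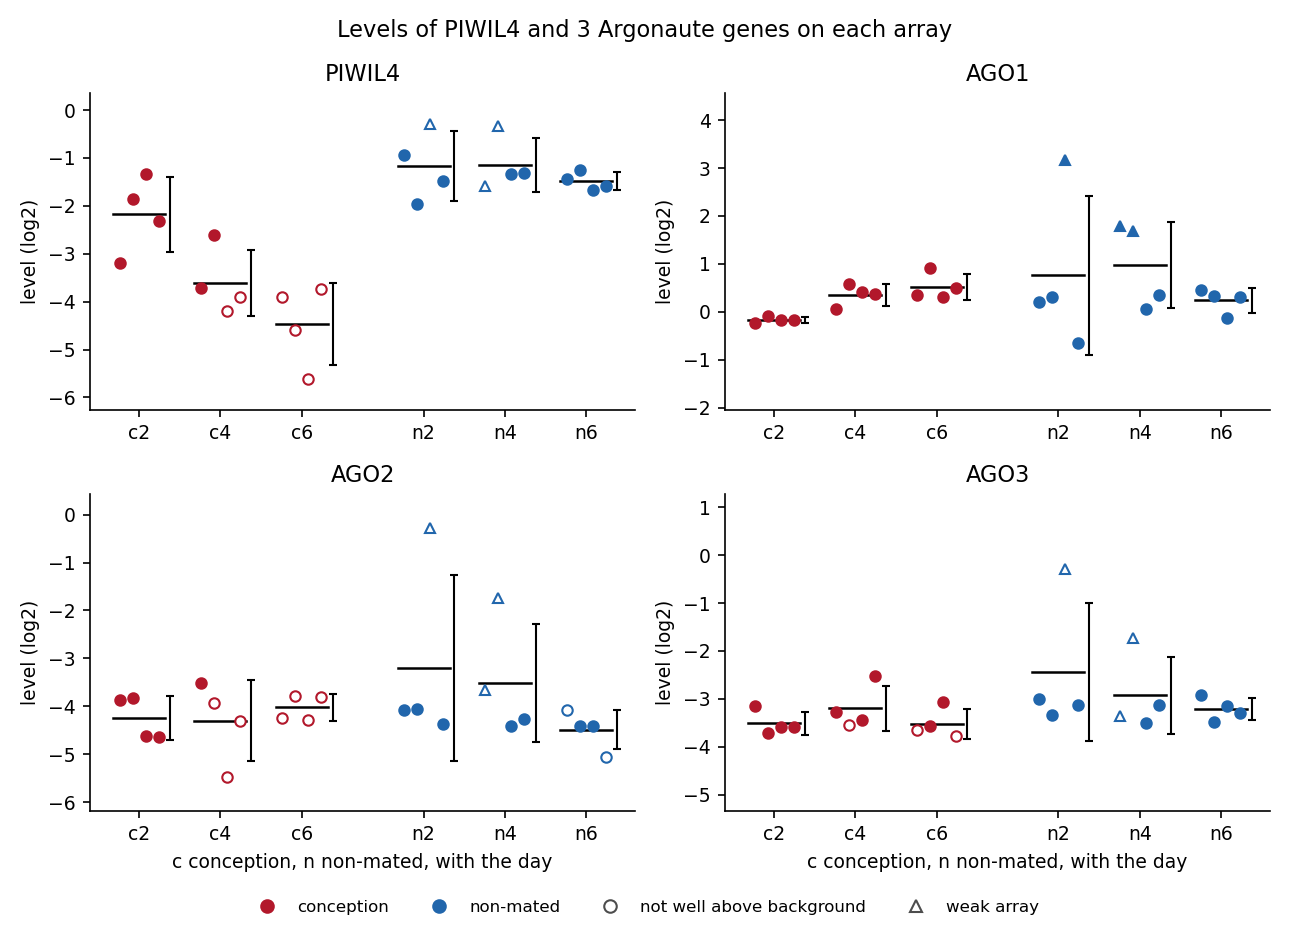
Levels of PIWIL4, AGO1, AGO2 and AGO3 (log2 signal minus the array's 75th percentile) on each array, with conception groups left of non-mated groups and all panels spanning the same log2 range. Black lines show the mean with the SD beside it (n = 4), open symbols were not well above background and triangles are weak arrays. With the weak arrays set aside, the AGO1 differences between cycle types run from -0.12 to 0.27, those of AGO2 from -0.07 to 0.46 and those of AGO3 from -0.35 to 0.11.

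The partners of PIWI proteins were next. Of 28 piRNA pathway genes listed, 18 were on the array and 9 passed the filter on dim probes. Between cycle types 0 of the 9 passed on any day, where 0%, 0% and 0.00819% of all features passed at days 2, 4 and 6. The median log2 difference on these days was -0.35, -0.10 and 0.10, beside -0.15, 0.02 and 0.00 over all features. Leaving out the weak arrays turned the first 2 medians to 0.02 and 0.27. PRMT5, which methylates arginines of PIWI proteins, lay at 0.10 ± 0.39 (SE) at day 6, and the Tudor proteins TDRD7 and TDRD3 at 0.03 ± 0.34 and 0.20 ± 0.40. TDRD9, a Tudor domain helicase that acts with the mouse orthologue of PIWIL4 in the germline, lay at -1.24 ± 0.71 at day 6 and at -1.55 ± 0.71 for day 6 against day 2 of conception cycles (limma adjusted p = 1.00 and 0.998). KIF17, a kinesin known from neurons and germ cells, and SPOCD1, a partner of the mouse orthologue of PIWIL4, ran the other way, at 0.95 ± 0.92 and 0.87 ± 1.06 at day 6 and at 1.09 ± 0.92 and 1.17 ± 1.06 for day 6 against day 2. SPOCD1 was well above background on 11 arrays, 1 of them of conception day 6, and KIF17 on 22. MAEL, a factor of transposon silencing in germ cells, was well above background on 5 arrays and DDX4, the germ cell helicase also called VASA, on 1. TDRD1, ASZ1, TEX15 and RNF17, all known from germ cells, were well above background on 0 arrays.

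Genes of the pathways in which the family acts gave no call between cycle types either. Across all features 0%, 0% and 0.00819% passed at days 2, 4 and 6, so a count of 0 in a list is near that share. The median log2 difference of all features at day 6 was 0.00. Of 18 microRNA pathway genes tested, 0 passed on any day, and the median log2 difference at day 6 was 0.19, with 15 positive values. DDX17 and SND1, which bind RNA and process or use microRNAs, lay at 0.06 ± 0.48 and 0.09 ± 0.34 (SE) at day 6, and ADAR, an RNA editing enzyme, at 0.14 ± 0.51. Of 9 DNA methylation genes 0 passed, with a median of 0.16 at day 6. Among them DNMT1, the maintenance methyltransferase, lay at 0.16 ± 0.50, the de novo enzyme DNMT3A at 0.15 ± 0.52 and the methyl-CpG binding protein MBD1 at 0.08 ± 0.51. Of 12 chromatin silencing genes 0 passed, with a median of 0.12. TRIM28, a corepressor of transposons, lay at 0.04 ± 0.28, the HP1 protein CBX1 at 0.18 ± 0.54 and the demethylase KDM1A at 0.20 ± 0.54. Over these 4 lists and 3 days the lowest limma adjusted p was 0.686, and 3 of 144 tests had an unadjusted p under 0.05.

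Cell type markers were read beside the PIWIL4 levels, because in a bulk sample fewer cells of a type and less RNA per cell cannot be told apart. At day 6 the 9 epithelial markers had a median log2 difference of -0.50, beside 0.00 over all features, with 6 lower, and 0 passed the limma test. Their summed level, in units of the array's 75th percentile signal, ranged from 68.5 to 103 in conception cycles and from 100.5 to 116 in non-mated cycles. For day 6 against day 2 of conception cycles their median was -0.77, beside -0.02 over all features. The 10 ciliated cell markers had a median of -0.29 at day 6, with 8 lower, and a summed level of 3.47 to 8.29 in conception cycles and 4.02 to 8.58 in non-mated cycles. The 11 stromal markers had a median of 0.02 and a summed level of 121.5 to 398 in conception cycles and 147 to 250.03 in non-mated cycles. The 5 leukocyte markers were all positive, with a median of 0.43. Over all marker lists and days 0 of 144 limma tests passed, and 4 had an unadjusted p under 0.05. Across all features 0%, 0% and 0.00819% passed at days 2, 4 and 6. Conception day 2 replicate 2 had a summed smooth muscle level of 338, where no other array that was not weak exceeded 52.5, and without it the PIWIL4 difference at day 2 was -1.11. Conception day 2 replicate 1, on which PIWIL4 was lowest in its group, also had the lowest epithelial sum of that group, 89.2. At conception day 6 PIWIL4 was lowest on replicate 3, at -5.62, which had the highest epithelial sum of its group, 103. At conception day 4 it was lowest on replicate 3, at -4.18 with a sum of 109, where replicate 4 had the lowest sum, 66.1. PIWIL4 was not well above background on any conception array of day 6, nor on replicates 3 and 4 of day 4. No order of PIWIL4 was therefore measured among those arrays. The part of epithelial, ciliated and other cells in the PIWIL4 result was not tested. Of the germ cell markers DAZL and DDX4 were well above background on 1 array at most, SYCP1, STRA8 and ZPBP on 0, TNP1 and PRM1 on 2 each, SPATA16 on 1 and SYCP3 on 8.

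Genes near PIWIL4 on the chromosome were looked at within 500000 bases of its probe. There were 11 other probes, of which 7 were named and 7 passed the filter. In 21 limma tests between cycle types 0 passed, with a lowest adjusted p of 0.686 and 2 unadjusted p under 0.05. Across all features 0%, 0% and 0.00819% passed at days 2, 4 and 6. At day 6 the log2 differences of the neighbours ran from -0.34 to 0.90. ANKRD49, the nearest gene that passed, lay at 0.90 ± 0.39 (SE) at day 6 and GPR83, a G protein-coupled receptor gene, at -0.34 ± 0.60. CWC15, a spliceosome component, lay at 0.06 ± 0.43 and SRRP35, a splicing factor gene, at 0.22 ± 0.43. KDM4D, a histone demethylase gene, lay at -2.81 ± 1.12 at day 4, but at -0.51 without the weak arrays. MRE11, a DNA repair nuclease gene, was well above background on 0 arrays and FUT4 on 3.

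Genes whose levels ran most like PIWIL4 were sought by Pearson's r over the 21 arrays that were not weak, among 7873 other features with a symbol, whose median r was -0.01. The arrays share the tissue and the array scaling, and r is given as a description. The 10 highest values, from 0.85 to 0.90, belonged to KCNK13, GCHFR, CRYGS, ODC1, TEX29, LMBR1, ITGB8, LCA5, TMEM61 and FAM124B. Within the 12 conception arrays their r ranged from 0.86 to 0.94, and within the 9 non-mated arrays from -0.34 to 0.36. PIWIL4 varied little among non-mated arrays, so genes chosen this way mostly follow it among conception arrays, and their course over the days is fixed in large part by the choice. All 10 had a lower mean at day 6 than at day 2 of conception cycles, by log2 differences from -4.05 to -1.37.

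KCNK13, a potassium channel gene, had the highest r, at 0.90. Its mean level at days 2, 4 and 6 was -0.48, -3.32 and -4.53 in conception cycles, and -0.05, -0.30 and -0.50 in non-mated cycles without the weak arrays. ODC1 encodes ornithine decarboxylase, the enzyme that opens polyamine synthesis, and its means were 4.46, 3.19 and 2.95 in conception cycles and 4.81, 4.43 and 4.62 in non-mated cycles. CRYGS, a crystallin gene, averaged 2.58, -0.37 and -0.90 in conception cycles and 3.47, 2.20 and 3.24 in non-mated cycles. ODC1, CRYGS and LMBR1, 3 of the 10, were well above background on all 12 conception arrays, where PIWIL4 was not. TEX29, named for its expression in testis, averaged 0.17, -1.69 and -3.60 in conception cycles and 1.41, 0.27 and 1.02 in non-mated cycles. GCHFR, a regulator of tetrahydrobiopterin synthesis, averaged -0.72, -3.34 and -3.97 in conception cycles and -0.85, -1.44 and -1.28 in non-mated cycles.

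The 5 lowest r belonged to LPAR1 (-0.84), ABHD1 (-0.83), MARCHF5 (-0.80), PYCARD (-0.78) and WFS1 (-0.78), and all 5 had a higher mean at day 6 than at day 2 of conception cycles, which the choice likewise favours. LPAR1, a lysophosphatidic acid receptor gene, averaged -3.35, -2.59 and -2.28 in conception cycles and -3.75, -3.62 and -3.80 in non-mated cycles without the weak arrays. PYCARD, the inflammasome adaptor gene, averaged -2.56, -1.50 and -1.78 in conception cycles and -2.77, -3.07 and -2.64 in non-mated cycles. The weak arrays weigh on these values: over all 24 arrays the r of ODC1 was 0.33 and that of ABHD1 was 0.09.

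**Figure D5:**
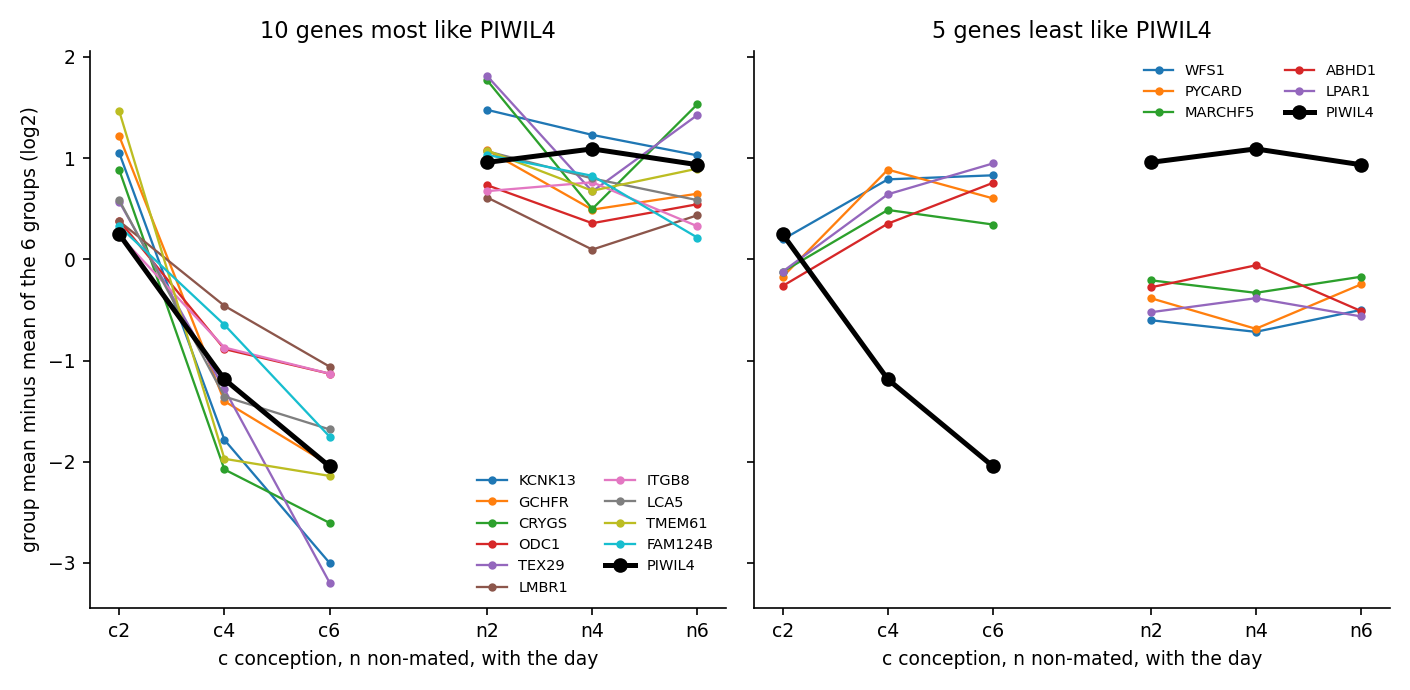
Group means without the weak arrays, each gene centred on the mean of its 6 groups (log2), for the 10 genes most like PIWIL4 (left) and the 5 least like it (right), with PIWIL4 in black. Conception groups stand left of non-mated groups in each panel. In conception cycles the 10 genes have lower means at day 6 than at day 2, by 1.37 to 4.05, and the 5 have higher ones.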

How the data were processed

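Each deposited scanner file gives intensity values by spot, and the processed signal used here was corrected for background by Agilent Feature Extraction, version 9.5.3.1 per the file headers and 10.7.3.1 per the submitters' processing notes. The authors' deposited value table is on the log2 scale; its columns tracked scanner differences between arrays at r from 0.982 to 0.999, its column medians ran from -0.41 to 2.87, and its baseline and centring stay unknown. It served as an alternative. Flagged spots were dropped and the 2 spots of a probe averaged. The level was log2 processed signal minus the array's 75th percentile. A probe was kept (12780 were) if 3 or more arrays of any group detected it well above background, with the probe of the highest mean for each gene, which gave 12208 features. The 6 group means were fitted in 1 model with limma 3.58.1 (R 4.3.3; lmFit and eBayes, 18 residual degrees of freedom), two-sided, adjusted by Benjamini-Hochberg over all features, at 0.05. The script was tested on simulated data. Python 3.11.15, pandas 2.3.3, numpy 2.4.6 and matplotlib 3.10.9 were used. Among 276 pairs of arrays 0 were identical. The number of arrays limits the precision.

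Genes were named by rule: PIWI and Argonaute genes; the 10 highest and 5 lowest Pearson r with PIWIL4; all genes within 500000 bases; and of each list the 3 of highest mean level and any past the threshold. The other list members named were chosen after their values were seen. The members and lists were chosen with earlier results of these data known. RefSeq tables gave gene names only, and 12226 probes had a symbol. Weak arrays are those with under 50% of probes well above background. Alternatives were background correction (normexp, offset 50), quantile normalization, no filter, a floor on dim signals, the authors' table, slide, scan day, scan range, weak arrays, replicate number, and each array left out in turn.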

Additional observations from a re-analysis of the deposited data

Results flagged for a closer look

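Of 36 groups of 4 arrays examined for PIWI and Argonaute genes, 3 held an array far from the other arrays of its group by Dixon's test, which chance gives in about 1 of 20 groups. AGO2 and AGO3 on non-mated day 2 replicate 3 both had a level of -0.28, above the 3 other arrays of the group. That array is weak, neither probe was well above background on it, and PIWIL4 and AGO4 have the same level there. PIWIL3 on conception day 6 replicate 3 had a level of -0.00218, while the 3 other arrays lay between -5.80 and -5.58. Its probe was well above background on that array, which carried 616 outlier-flagged spots, where no other array had over 50.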

How the results depend on the processing

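Over 74 results and their alternatives, 2156 values were computed, of which 2135 kept their side of the threshold or moved by less than the spread, 16 moved further, 3 newly passed, 0 ceased to pass and 2 turned in sign; 91 further values that passed no test changed sign. For PIWIL4 in conception cycles against non-mated cycles, normexp gave -0.16, -1.62, -1.56 and -1.11 at days 2, 4 and 6 and over their mean, and at day 2 quantile normalization gave 0.18, leaving out weak and single-range arrays -0.13 and the slide as a fixed term -0.32; the cause was not tested. With 1 array left out these differences ranged from -1.28 to -0.67, from -2.79 to -2.19, from -3.22 to -2.59 and from -2.26 to -2.02. The day effect of PIWIL4 in conception cycles passed without the weak arrays (limma adjusted p = 0.0490). Its conception arrays entered the choice of the gene, so this pass lends that choice no support. An exact permutation test of the gene alone, added after seeing the data, gave p = 0.00745, unadjusted over other genes and on arrays that entered the choice of the gene, so it lends no support. The limma adjusted p ranged from 0.134 to 1.00 with 1 array left out. Features past the threshold for that effect numbered 1 in the fit of all arrays, 52 without the weak arrays, and 0 with normexp, quantile normalization, no filter, a floor, the slide as a fixed term or no single-range arrays; for day 6 against day 2 they numbered 2, 208 and 0. Without the weak arrays 1 list gene passed there, the microRNA pathway gene TNRC6C (1.70, adjusted p = 0.0456). Same-numbered arrays of different groups did not deviate together (correlations from -0.67 to 0.63 over 60 pairs, median 0.02, against -0.01 for other numbers), and with the replicate number as a block the adjusted p for day was 0.602 in conception and 0.880 in non-mated cycles. The likeness (r) of ABHD1 was 0.0878 over all 24 arrays. PIWIL4 was not well above background on any conception array of day 6, so signal over background limits how low it can be read.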
